A study of Mus musculus with 8 samples.

Results

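The mitochondrial respiratory chain passes electrons from nutrients to oxygen through complexes I to IV, and complex V, the ATP synthase, uses the proton gradient that complexes I, III and IV build to make ATP. Most subunits are encoded in the nucleus and a few in mitochondrial DNA. In the retina the demand for ATP is high, and the inner segments of photoreceptors are densely packed with mitochondria. Here 81 nuclear genes of these complexes were read on mouse retina arrays, chosen by gene symbol alone (symbols that begin with Nduf and a, b, c, s or v plus a digit, Sdha to Sdhd, Uqcr, Cox4 to Cox8, and Atp5) among 18193 genes with at least 1 probe set. Each gene was read at the probe set, out of 164 in all, with the highest mean signal. They comprised 35 genes of complex I, 4 of complex II, 8 of complex III, 17 of complex IV and 17 of complex V. Complexes were assigned by symbol, so Ndufa4 and Ndufa4l2 were counted under complex I.

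The arrays were Affymetrix expression arrays of total RNA from mouse retina, 1 sample per array. The control group was 4 retinas taken fresh (Ret-C, time 0 d), and the injected group was 4 retinas labelled as injected under a compound-based treatment (Ret Exp). Compound, dose, route, interval, strain, age and genotype are not in the labels, and no sham injection was part of the comparison. Separate animals are not stated, so the p-values rest on the spread among these 8 samples, and that spread may be technical.

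Values are log2(intensity + 16) after quantile normalisation, and a difference is injected minus control on that scale. Precision is limited by having 4 arrays a group. Of 16 rod markers on the array, 15 passed the floor on low signal. Rod arrestin Sag was at 16.32 ± 0.11 and rod transducin Gnat1 at 14.55 ± 0.16 in control (SD, n = 4). The rod marker Prph2 was below the floor, at 5.53 ± 0.41 in control. Array medians ran from 495 to 766 intensity units. The log2 ratio of 3′ to 5′ signal of the Gapdh control probe sets, a measure of RNA integrity and labelling, was 1.75 to 2.23 on control and 2.40 to 3.14 on injected arrays (two-sided exact permutation test, p = 0.0286, which is the lowest value possible here). It was highest on injected replicate 3, which also had the lowest array weight in limma (0.191 against 0.646 to 1.83). The same ratio for Actb overlapped between groups (5.29 to 5.84 and 5.44 to 5.90, exact permutation p = 0.486). The part of RNA quality in the differences given here was not tested.

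Signal for the respiratory chain and ATP synthase genes differed little between control and injected retina. Of the 81 genes, 77 passed the floor on low signal and were tested, and 0 passed limma's threshold (adjusted p under 0.05 over 27022 probe sets), against 0% of all probe sets. Over the whole array, 1889 probe sets had an unadjusted limma p under 0.05, and 8 passed the adjusted threshold with array weights, none of them the chosen probe set of a member. At an unadjusted p under 0.05, 0 members were higher, against 3.77% of all 12886 tested genes, and 1 member was lower, against 2.91%. That gene was Atp5l, which encodes subunit g of the ATP synthase membrane part. The median difference over the 77 genes was -0.10, against -0.01 over all tested genes.

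The differences were small and mostly negative. A total of 62 were below 0 and 15 above, where 51.5% of all tested genes were below 0. With the deposited scaling 53 of the 77 were below 0, and with centring on array medians 68. Centring moved the median of all tested probe sets to -0.15, and relative to that median the members stood at -0.13 under either of these scalings, against -0.08 with quantile normalisation. In 47 genes the difference was under 0.2 in size, and in 4 it was over 0.5. The 95% interval of the difference lay between -1 and 1, which is within a 2-fold change, in 66 genes, and between -0.5 and 0.5 in 16. Smaller changes were not detectable in most members with this number of arrays.

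**Figure D1:**
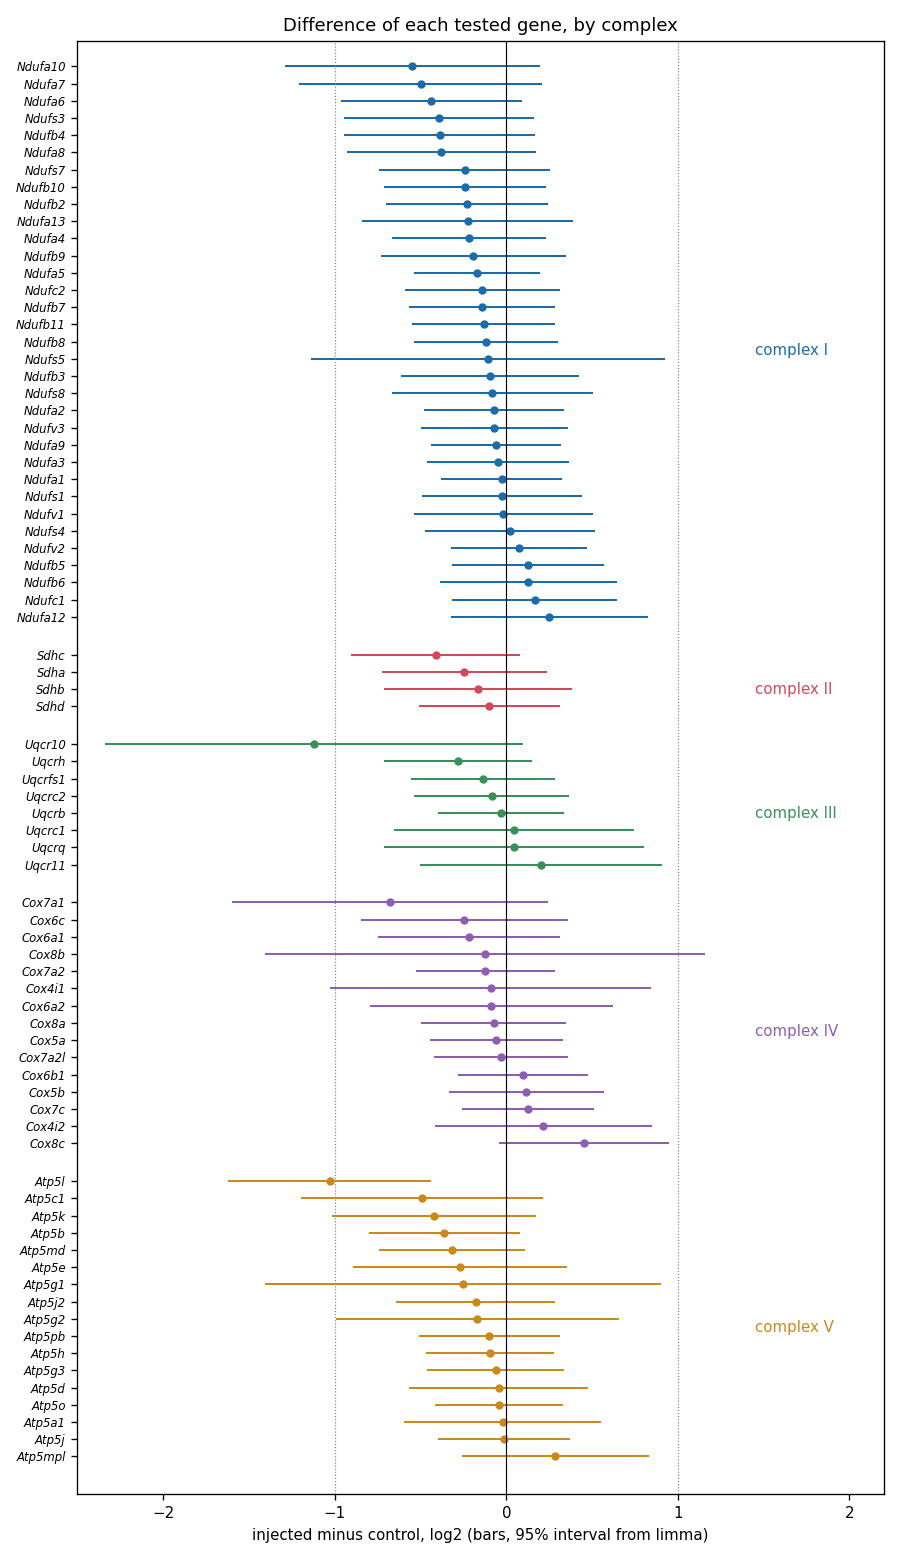
Injected minus control difference (log2, horizontal axis) of the 77 tested genes, grouped and coloured by complex; points are limma estimates and bars their 95% intervals, and dotted lines mark a 2-fold change. Atp5l at the head of complex V is the only gene whose interval lies wholly on 1 side of 0, and 66 of 77 intervals lie between the dotted lines.

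The median over all members was lowest on injected replicates 2 and 3. Against each gene's control mean it was 0.06, 0.09, -0.06 and -0.13 on control replicates 1 to 4, and -0.03, -0.18, -0.21 and -0.03 on injected replicates 1 to 4. Injected replicates 1 and 4 thus lay inside the range of the controls. Injected replicate 3 had the lowest value of all 8 arrays in 32 of 77 members (41.6%), while it was lowest in 29.8% of all tested genes. It was the highest array in 13% of members and in 29.9% of all tested genes. Without injected replicate 3 the median difference over members was -0.07, without injected replicate 1 it was -0.16, and without control replicate 2 and injected replicate 3 together it was -0.02, with 48 genes below 0. Of 39 members followed one by one, 33 had a difference that shrank by more than 1.5-fold or changed sign when some 1 array was left out, 16 of them without injected replicate 3.

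**Figure D2:**
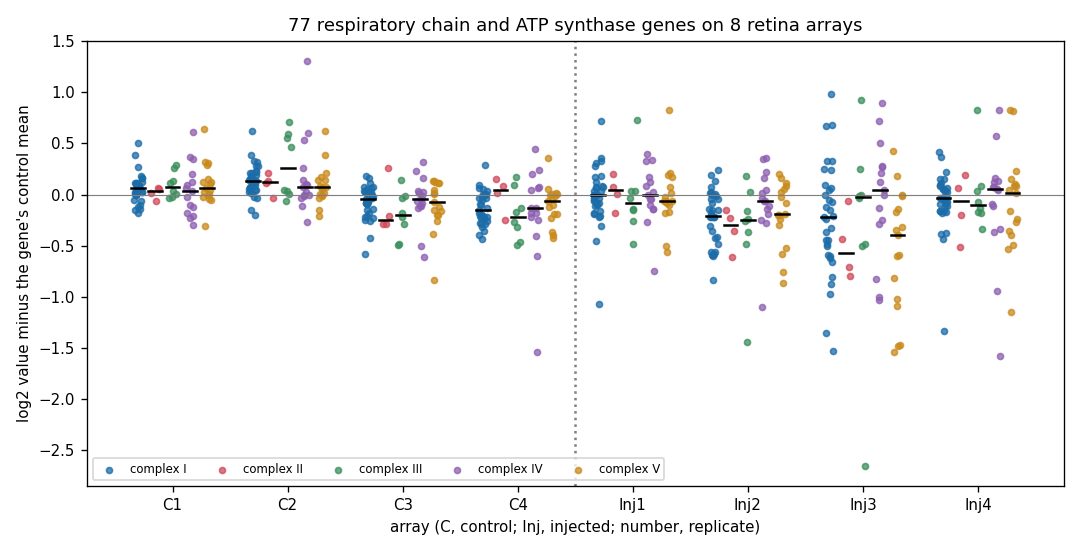
Deviation of each gene from its own control mean (log2, vertical axis) on each of the 8 arrays (C, control; Inj, injected), coloured by complex; black bars are the medians per complex. Most points lie within 0.5 of 0, and the medians of complexes II and V are lowest on injected replicate 3, at -0.57 and -0.39.

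Spread was wider among injected than among control retinas. The median SD over members was 0.17 in control and 0.33 in injected retina, and 60 of 77 members had the larger SD in the injected group. The same held for all tested genes, with medians of 0.22 and 0.40 and a larger SD in the injected group for 74.69% of them.

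The promoters of these genes were searched for letters of 3 transcription factors known as regulators of nuclear respiratory genes: GCGCATGCG for nuclear respiratory factor 1 (NRF1), CCGGAAG for ETS factors such as GABPA, and AAGATGGCG for YY1, on both strands. RefSeq promoter windows on GRCm38.p6, from 250 bases before to 50 after a listed start, were matched for 66 of the 81 genes and gave 71 promoters. Positions are counted from the window's own start, which was the start of the gene's record in 12 of the 19 member windows on the plus strand. NRF1 letters were in 9.86% of them, against 1.75% of all 32851 promoters, ETS letters in 23.9% against 8.86%, and YY1 letters in 8.45% against 1.40%. Member promoters also held more CG pairs, with a median of 19 against 7. All 6 YY1 matches ran along the gene's own strand, and 5 of them lay 23 to 44 bases after the start. The NRF1 letters run into their own reverse complement, so many matches overlap on both strands. These are matches of letters, described without a test, and say nothing of binding in these retinas.

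At least 2 of the 3 kinds of letters were in 5 of the 71 member promoters (7.04%), against 0.645% of all promoters. One was the promoter of Atp5l, the member with the smallest p. The stretches around these matches before or at the start are printed to show how the letters sit, 5′ to 3′ along the gene, all on the minus strand of GRCm38.p6, with matches to any of the 3 in capitals. They lie at chr10:80406808-80406897 (Uqcr11), chr5:115348958-115349130 (Cox6a1), chr16:84835021-84835074 (Atp5j), chr5:108434430-108434459 (Atp5k) and chr9:44920938-44920992 (Atp5l).
Uqcr11: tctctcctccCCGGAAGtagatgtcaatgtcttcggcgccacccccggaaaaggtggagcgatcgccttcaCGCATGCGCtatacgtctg
Cox6a1: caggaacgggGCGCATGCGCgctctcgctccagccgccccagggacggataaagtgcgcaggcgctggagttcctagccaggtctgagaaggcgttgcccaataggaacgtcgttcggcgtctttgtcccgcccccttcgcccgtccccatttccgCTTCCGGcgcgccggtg
Atp5j: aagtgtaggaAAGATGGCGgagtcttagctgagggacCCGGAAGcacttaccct
Atp5k: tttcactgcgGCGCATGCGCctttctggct
Atp5l: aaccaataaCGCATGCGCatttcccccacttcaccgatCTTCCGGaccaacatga
Not printed are the ETS letters of Atp5k, 13 to 19 bases after the start, and a second ETS match of Atp5l, 25 to 31 after it. The genes with these promoters did not share a direction: Uqcr11 was at 0.20 ± 0.31 (SE), Cox6a1 at -0.22 ± 0.23, Atp5j at -0.01 ± 0.17, Atp5k at -0.42 ± 0.26 and Atp5l at -1.03 ± 0.26.

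Complex V showed the difference with the smallest p. Atp5l read 10.91, 11.42, 10.95 and 11.57 on control replicates 1 to 4. On injected replicates 1 to 4 it read 10.65, 10.35, 9.68 and 10.07. All 4 injected values lay below all 4 control values. The difference was -1.03 ± 0.26 (SE; 95% interval -1.62 to -0.44; limma adjusted p = 0.532), and it did not pass over all probe sets. It ran from -1.18 to -0.86 when any 1 array was left out. The gene has a single probe set on the array, so no other reading of it could be compared.

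The catalytic head of the ATP synthase is built of alpha and beta subunits around a central stalk. The beta subunit Atp5b read 13.59, 13.49, 13.27 and 13.52 in control and 13.37, 12.89, 12.87 and 13.31 in injected retina. Its groups overlapped, and the difference was -0.36 ± 0.19 (SE; adjusted p = 0.730). The alpha subunit Atp5a1 was at -0.02 ± 0.25, with 2 further probe sets at -0.45 and 0.06. Of the central stalk, the gamma subunit Atp5c1 was at -0.49 ± 0.31, delta Atp5d at -0.05 ± 0.23 and epsilon Atp5e at -0.27 ± 0.27. A second probe set of Atp5c1 was at 0.00. For Atp5c1, injected replicate 3 read 15.39 and the other 7 arrays 16.64 to 16.98.

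Atp5g1, Atp5g2 and Atp5g3 each encode subunit c, which forms the rotating ring in the membrane. Atp5g3 differed by -0.06 ± 0.17 (SE) with an interval from -0.45 to 0.33. Atp5g2 was at -0.17 ± 0.36 and Atp5g1 at -0.25 ± 0.51, both with wide spread. The values of Atp5g1 were 11.38, 11.37, 9.91 and 10.32 in control and 11.57, 10.77, 9.28 and 10.35 in injected retina. Control values spanned 1.48 log2 units, and the difference of all 3 genes turned positive without injected replicate 3 (0.15 for Atp5g1, 0.05 for Atp5g2 and 0.03 for Atp5g3).

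Small membrane subunits and the peripheral stalk completed complex V. Atp5k, subunit e, which lies beside subunit g, was at -0.42 ± 0.26 (SE), and -0.20 without injected replicate 3. Atp5md, a small subunit also called DAPIT, was at -0.32 ± 0.19, with controls at 13.85 to 14.17 and injected retinas at 13.51 to 13.96. Atp5mpl, a further small subunit, was the only gene of complex V above 0, at 0.29 ± 0.24. Subunit f (Atp5j2) stood at -0.18 ± 0.20. The stalk subunits Atp5pb, Atp5h, Atp5j and Atp5o lay between -0.10 and -0.01, and their intervals stayed within -0.51 and 0.37. Second probe sets were at -0.45 for Atp5h, -0.49 for Atp5o and -0.11 for Atp5pb. The median of complex V was -0.17 over 17 genes, but -0.04 without injected replicate 3 and -0.02 without control replicate 2 as well. Its median per array was -0.39 on injected replicate 3 and -0.19 to 0.01 on the other injected arrays.

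Complex I, which oxidises NADH, had a median difference of -0.12 over its 33 tested genes (-0.08 without injected replicate 3), with 27 below 0 and none past an unadjusted p of 0.05 (0 of 33). Several core subunits that carry electrons were near 0. Ndufs1, the large iron-sulphur subunit, read 13.86, 14.10, 14.11 and 14.08 in control and 14.40, 13.83, 13.68 and 14.15 in injected retina, a difference of -0.03 ± 0.20 (SE). Ndufv1, which binds the flavin that accepts electrons from NADH, was at -0.02 ± 0.23 and its partner Ndufv2 at 0.07 ± 0.17. Ndufs7 and Ndufs8, which carry iron-sulphur clusters towards quinone, were at -0.24 ± 0.22 and -0.08 ± 0.26. Ndufs8 had 6 tested probe sets that ran from -0.22 to 0.52.

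The 4 complex I genes with the smallest p were Ndufa6, Ndufa10, Ndufs3 and Ndufa7, and none of them passed. Ndufa6, an accessory subunit, read 12.85, 12.32, 12.11 and 12.12 in control and 12.05, 11.52, 12.11 and 11.98 in injected retina, a difference of -0.44 ± 0.23 (SE; adjusted p = 0.730). Control replicate 1 was the high array there, and without it the difference was -0.27. Ndufa10, an accessory subunit of the membrane arm, was at -0.55 ± 0.33, Ndufa7 at -0.50 ± 0.31 and the core subunit Ndufs3 at -0.39 ± 0.24. In these 3 genes injected replicate 3 was the lowest array, and without it the differences were -0.22 for Ndufa10, -0.22 for Ndufa7 and -0.20 for Ndufs3. A second probe set of Ndufa10 went the other way, at 0.18, while 4 others of Ndufa7 ran from -0.85 to -0.15.

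Ndufa5, another accessory subunit, was the second member whose groups did not overlap. It read 14.96, 15.27, 14.99 and 15.04 in control and 14.88, 14.88, 14.92 and 14.90 in injected retina. The gap between the groups was narrow, and the difference was -0.17 ± 0.16 (SE; adjusted p = 0.783). Over all members, 0 were higher and 2 lower without overlap, against 2.85% and 2.65% of all tested genes. Ndufa9, of the part that binds quinone, was at -0.06 ± 0.17, and Ndufa4, now known as a subunit that associates with complex IV, at -0.22 ± 0.20.

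**Figure D3:**
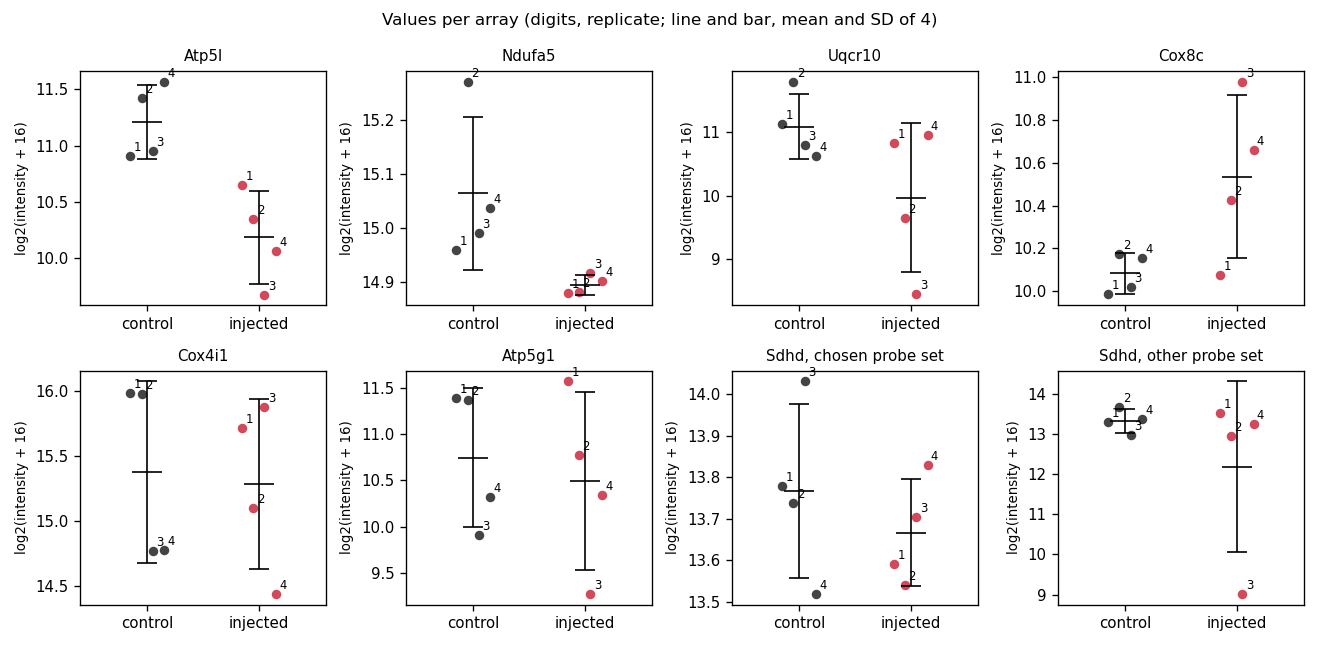
log2(intensity + 16) on each array for 8 readings, with control in grey and injected in red; digits are replicate numbers, and the line and bar are the mean and SD of 4. Atp5l and Ndufa5 do not overlap between groups, Cox4i1 and Atp5g1 split within the controls, and the other probe set of Sdhd is low on injected replicate 3 alone, at 9.02.

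Complex II, succinate dehydrogenase, links the tricarboxylic acid cycle to the chain and has 4 subunits, whose chosen probe sets were all below 0. The flavoprotein Sdha was at -0.25 ± 0.21 (SE), the iron-sulphur subunit Sdhb at -0.16 ± 0.24, and the membrane anchors Sdhc and Sdhd at -0.41 ± 0.22 and -0.10 ± 0.18. Sdhc read 11.95, 12.02, 11.59 and 11.97 in control and 11.89, 11.52, 11.09 and 11.37 in injected retina, so the groups overlapped. Its second probe set went the other way, at 0.46. Leaving out 1 array brought Sdha to -0.09 (injected replicate 3), Sdhb to -0.015 (injected replicate 2) and Sdhd to -0.0125 (control replicate 3). The other probe set of Sdhd read 12.97 to 13.67 on the controls and 13.52, 12.96, 9.02 and 13.27 on injected replicates 1 to 4, while the chosen one read 13.70 on injected replicate 3. The 2 readings of Sdhd thus differed by more than 4 log2 units on that array alone.

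Complex III passes electrons from quinol to cytochrome c. Its core proteins Uqcrc1 and Uqcrc2 were at 0.05 ± 0.31 and -0.08 ± 0.20 (SE), and the Rieske iron-sulphur protein Uqcrfs1 at -0.14 ± 0.18. Uqcr10, a small subunit, had the most negative difference of the tested members, -1.12 ± 0.54 (95% interval -2.33 to 0.09, limma adjusted p = 0.725). It read 11.13, 11.80, 10.81 and 10.63 in control and 10.84, 9.65, 8.44 and 10.96 in injected retina. Injected replicates 1 and 4 lay among the controls, and without injected replicate 3 the difference was -0.61. A second probe set of Uqcr10 was at -0.24. Uqcrh, a hinge protein that contacts cytochrome c1, was at -0.28 ± 0.19, Uqcr11 at 0.20 ± 0.31, and the median of the complex was -0.06 over 8 genes. That median ran from -0.13 without injected replicate 1 to -0.0031 without injected replicate 2. Uqcrh read at its other probe set was at -0.62.

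Complex IV, cytochrome c oxidase, reduces oxygen, and several of its nuclear subunits exist as isoforms of different tissues. Its median difference was -0.07 over 15 tested genes, and 0.05 with the deposited scaling. Of the isoforms found in most tissues, Cox4i1 was at -0.09 ± 0.41 (SE), Cox6a1 at -0.22 ± 0.23, Cox7a2 at -0.12 ± 0.18, Cox6b1 at 0.10 ± 0.17 and Cox8a at -0.07 ± 0.19. Cox6a1 was at -0.015 without injected replicate 3, and Cox7a2 at -0.0486 without injected replicate 4. Cox5a, at -0.06 ± 0.17, and Cox5b, at 0.12 ± 0.20, have no such partner. Cox7a2l, which takes part in joining complexes III and IV into supercomplexes, was at -0.03 ± 0.17.

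The isoforms typical of other tissues overlapped between groups too. Cox7a1, the heart and muscle partner of Cox7a2, read 10.39, 10.55, 9.52 and 9.61 in control and 9.75, 10.18, 8.99 and 8.44 in injected retina. The groups overlapped at -0.68 ± 0.41 (SE; adjusted p = 0.744), and without injected replicate 4 the difference was -0.38. The muscle isoforms Cox6a2 and Cox8b were at -0.09 ± 0.31 and -0.13 ± 0.57, and Cox8b ran from 7.26 to 10.10 within the controls alone. Of 25 striated muscle markers on the array, 17 were below the floor, among them Acta1, Myh1, Myh4 and Mb, and the other 8 had a median difference of 0.22. Of these 8, 3 were below 0, against 51.5% of all tested genes. At an unadjusted limma p under 0.05, 2 were higher, against 3.77% of all tested genes. They were Tnnt1 at 1.86 ± 0.33 (limma adjusted p = 0.318) and Casq1 at 0.63 ± 0.19 (limma adjusted p = 0.602). The part of muscle RNA in the values of these isoforms was not tested. Cox4i2, an isoform tied to low oxygen, was at 0.22 ± 0.28.

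Cox8c, known from testis, had the most positive difference of the tested members. It read 9.98, 10.17, 10.02 and 10.16 in control and 10.08, 10.43, 10.98 and 10.66 in injected retina. Only injected replicate 1 lay among the controls, and the difference was 0.45 ± 0.22 (SE; 95% interval -0.04 to 0.94; adjusted p = 0.725). A second probe set was at 0.90 ± 0.39 (limma adjusted p = 0.712). The 4 members below the floor were Ndufb1, Ndufa4l2, Cox6b2 and Cox7b2, whose means over a group ran from 5.80 to 8.94. Ndufb1 read 8.61 to 9.52 in control and 8.92, 8.63, 8.52 and 4.84 in injected retina, so its difference of -1.21 rests on injected replicate 4.

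Variation among the 4 control retinas was as large as any group difference in some members. Cox4i1 read 15.99, 15.98, 14.77 and 14.77 on control replicates 1 to 4, and 15.72, 15.10, 15.88 and 14.44 on injected replicates 1 to 4. Its 95% interval ran from -1.02 to 0.84. Ndufs5, which has a similar spread, read 12.12, 12.34, 11.15 and 11.30 in control. In all, 9 members had a control range above 0.8 log2 units (11.7%, against 25.6% of all tested genes), and in 9 of the 9 control replicates 1 and 2 both lay above 3 and 4. They were Atp5g1, Cox4i1, Cox7a1, Cox8b, Ndufs5, Uqcr10, Uqcr11, Uqcrc1 and Uqcrq, a pattern noticed in the data and described without a test. The share of all tested genes of such range with this order was not computed. The order was not confined to these members. On control replicates 1 to 4 Pcp2 read 12.87, 12.90, 11.70 and 11.88, and Uqcc2 read 12.46, 12.66, 11.27 and 11.43. Lrpprc had the reverse order, at 10.75, 10.63, 11.95 and 12.11. How common the order is among all tested genes is therefore not known. At the other end, Atp5j had a control SD of 0.01 and Ndufa1 of 0.02.

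Different probe sets of a gene did not always give the same direction. A total of 44 members had 2 or more tested probe sets, and in 19 of these a probe set differed in sign from the chosen one. In some of the 19 these values were near 0, as in Ndufv1, with -0.0174 at the chosen and 0.0017 at another probe set. The share over all genes with 2 or more tested probe sets was not computed. The widest disagreement was in Cox7c, with 0.13 at the chosen and -0.99 at the other probe set, followed by Ndufc1 with 0.17 and -0.88. On injected replicate 3 the 2 probe sets of Ndufc1 moved apart, to 16.29 and 10.45, while the controls read 15.51 to 15.69 and 12.19 to 12.50. Of 145 tested member probe sets, 3 were lower (Atp5l, Ndufb11 and Ndufc1) and 1 higher (Cox8c) at an unadjusted limma p under 0.05, where 3.33% of all tested probe sets were lower and 3.66% higher. Probe sets that can bind related transcripts, with names ending in s_at or x_at, supplied the reading for 21 of the 77 tested members, and processed copies of many of these genes lie elsewhere in the genome, so these readings are less certain.

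**Figure D4:**
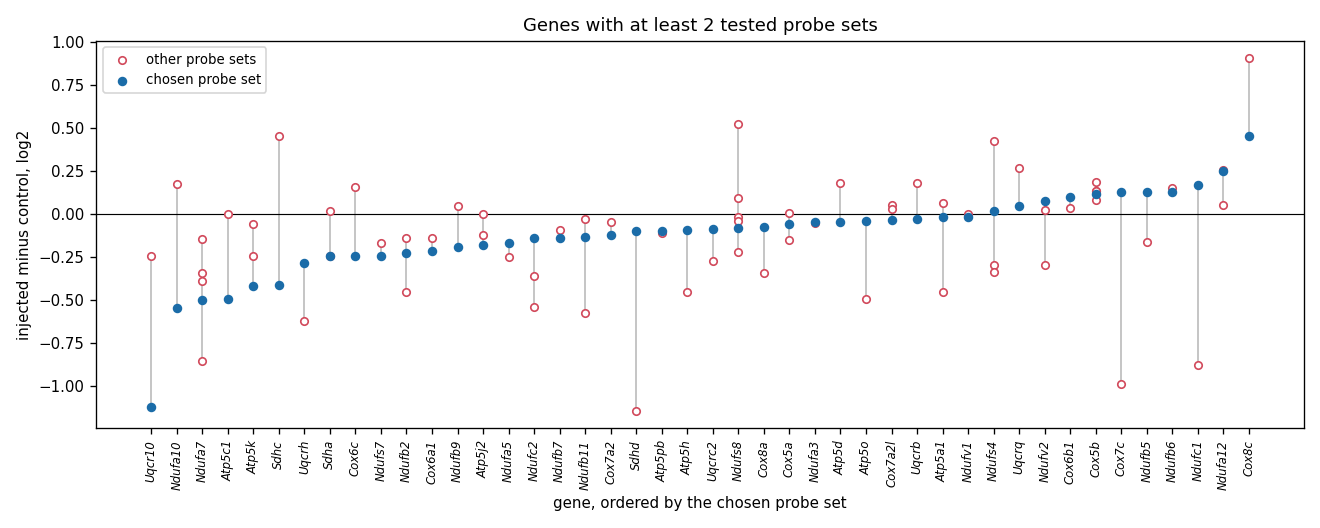
Injected minus control difference (log2, vertical axis) of every tested probe set of the 44 genes with at least 2, ordered by the chosen probe set (blue); other probe sets are open red circles joined by a grey line. In 19 genes a probe set lies on the other side of 0, and Sdhd, Cox7c and Ndufc1 have one below -0.8 while the chosen one is near 0.

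No gene of the other lists of the pathway passed the adjusted threshold, and the share of genes below 0 differed between lists. Below 0 were 9 of 14 further chain and electron carrier genes, 24 of 43 assembly factors and 13 of 18 regulators of mitochondrial biogenesis. Of the carrier and import genes, 10 of 21 were below 0. Among members 62 of 77 were below 0, and among all tested genes 51.5%. Of 14 further chain and electron carrier genes tested, none passed in either direction (0 higher and 0 lower at an unadjusted limma p under 0.05), and the median was -0.07. The mitochondrially encoded complex I subunit ND5 was at -0.13 ± 0.18 (SE), cytochrome c1 (Cyc1) at -0.22 ± 0.18, cytochrome c (Cycs) at -0.02 ± 0.17 and Atpif1, the inhibitor of ATP synthase, at -0.01 ± 0.21. Of 43 assembly factors, 1 was higher and 0 lower, against 3.77% and 2.91% of all tested genes, with a median of -0.10. The higher one was Ndufaf6, which acts in complex I assembly, at 0.46 ± 0.17 (limma adjusted p = 0.705), with controls at 11.75 to 12.11 and injected retinas at 12.26 to 12.45.

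Among 18 regulators of mitochondrial biogenesis, 2 were lower and 0 higher at an unadjusted limma p under 0.05, and 0 passed the adjusted threshold. Over all tested genes, 2.91% were lower and 3.77% higher at that unadjusted level. Ppargc1a, which encodes the coactivator PGC-1α that drives transcription of respiratory genes, read 14.01, 13.40, 13.58 and 13.29 in control and 13.04, 12.64, 12.34 and 12.90 in injected retina. All injected values lay below all controls, at -0.84 ± 0.23 (SE; limma adjusted p = 0.570). Tfb2m, a transcription factor of mitochondrial DNA, was at -0.56 ± 0.23 (limma adjusted p = 0.712). The factors whose letters were searched in the promoters, Nrf1, Gabpa and Yy1, were at 0.16 ± 0.30, -0.04 ± 0.16 and -0.14 ± 0.27.

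Of 17 genes of the tricarboxylic acid cycle and pyruvate dehydrogenase, 0 were higher and 0 lower at an unadjusted limma p under 0.05. Below 0 were 14 of them, against 51.5% of all tested genes, and the median was -0.10. Pdhx, a pyruvate dehydrogenase component, was at -1.50 ± 0.68 (SE) and Ogdh, of the oxoglutarate dehydrogenase complex, at -1.10 ± 0.63, and both were lowest on injected replicate 3, at 6.02 and 7.03. The 21 carrier and import genes also had 0 higher and 0 lower, with a median of 0.01.

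Rod, cone, inner retina neuron and Muller glia markers were also low on injected replicates 2 and 3. The rod median over 15 tested genes was -0.24, -0.60, -0.71 and 0.05 on injected replicates 1 to 4, and -0.06 to 0.17 on the controls. Of the 15, 13 had a difference below 0, against 51.5% of all tested genes. As in the members, the rod median on injected replicate 4 was within the range of the controls. On injected replicate 1 the rod median was below that range, while the members' median was inside theirs. No gene of these or the following marker lists passed the adjusted threshold (0 in each list), so their counts are at an unadjusted limma p under 0.05, to be read against 2.91% lower and 3.77% higher over all tested genes. Of the rod markers 3 of 15 were at that level in the lower direction. Cone markers had a median of -0.63 (5 lower of 10) and inner retina neuron markers one of -0.29 (6 lower of 21). Muller glia markers had a median of -0.18 (1 higher and 2 lower of 14) and pigment epithelium and choroid markers one of -0.89 (2 lower of 11). On injected replicates 1 to 4 the cone median was -0.58, -0.84, -0.98 and -0.32. The inner retina neuron median was -0.30, -0.47, -0.24 and -0.13 there, and the Muller glia median -0.19, -0.19, -0.56 and 0.09. On the controls the cone, inner retina neuron and Muller glia medians lay between -0.09 and 0.11. Blood and leukocyte markers had a median of 0.97 (5 higher of 9). Of that list, Aif1 and the red blood cell genes Hba-a1 and Alas2 were below the floor and not tested. Lens markers had a median of 2.71 (2 higher of 6), and smooth muscle and pericyte markers one of -0.23 (0 higher and 0 lower of 7). Among the controls alone the lens median per array ran from -1.92 to 2.25. The pigment epithelium and choroid median ran from -0.76 to 1.47 there. The part of these cell types in the members' values was not tested either. In bulk retina, fewer cells of a type and less RNA per cell cannot be told apart, and the part of rod loss or rod RNA in the members' values was not tested.

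**Figure D5:**
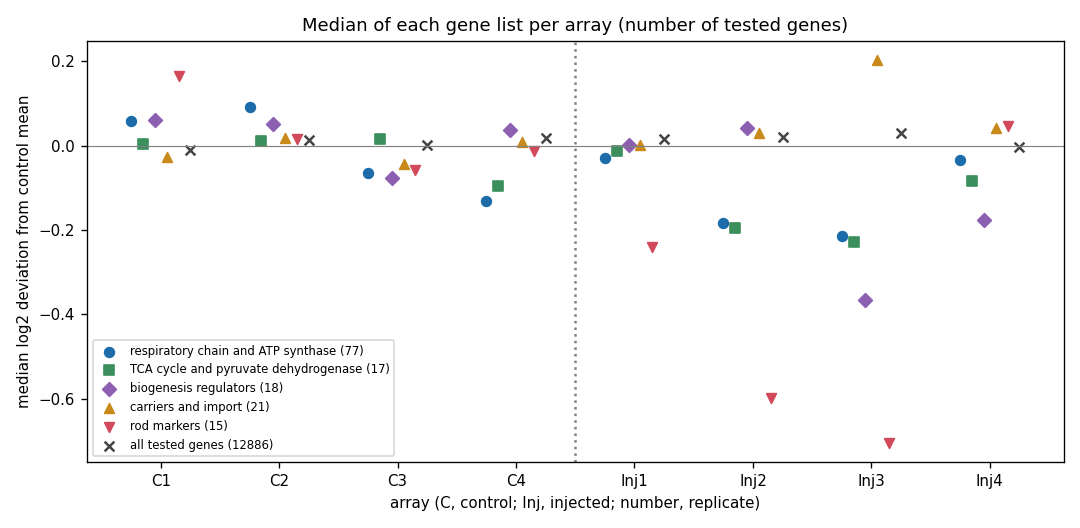
Median deviation from the control mean (log2, vertical axis) of 6 gene sets on each of the 8 arrays (C, control; Inj, injected), with the number of tested genes in the key. The respiratory chain and ATP synthase median is -0.18 and -0.21 on injected replicates 2 and 3, where rod markers are at -0.60 and -0.71. Rod markers are the only cell type markers drawn.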

How the data were processed

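Arrays of 8 retina samples were analysed, and groups were taken from the sample titles. The deposited values are linear intensities, 1 per probe set. Once the top and bottom 2% were trimmed, each array averaged 2500, so the authors had scaled arrays globally, which hides a change in total RNA; the software is not given in the sources used here. Array medians differed 1.55-fold, so the 45037 probe sets other than array controls were quantile-normalised in limma 3.58.1 (R 4.3.3). The 40th percentile of mean log2 signal (8.5) was the floor. lmFit and eBayes compared the groups, with Benjamini-Hochberg adjustment over all tested probe sets. Symbols came from the platform annotation; 9 probe sets that pair a symbol of this set with another gene were left out. All 81 symbols matched RefSeq.

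Members, lists, tests and alternatives were chosen with earlier results of these data known, and a gene's other probe sets are not independent of its first. Named were the 4 genes of each complex with the smallest p, a fixed set of core subunits and isoforms, up to 3 genes of each other list by smallest p, and the widest disagreements between probe sets. Other genes were named after their values were seen. The fit was tested on simulated data. Replicate numbers were not used to pair the samples. Deviations of arrays with the same number correlated at 0.08, 0.01, -0.03 and 0.04, and those with different numbers at -0.13 to 0.12. With 4 arrays a group these values cannot show whether samples were paired, and the labels do not say. Figures used matplotlib 3.10.9.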

Additional observations from a re-analysis of the deposited data

Results flagged for a closer look

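In 80 groups of 4 arrays, from the 40 named genes, 4 held an array far from the other 3, by Dixon's test of the gap over the range; chance gives about 1 in 20 such groups. Cox6a1 was low on injected replicate 3, at 15.77 against 16.53 to 16.65 on the other injected arrays. Ndufs1 was low on control replicate 1, at 13.86 against 14.08 to 14.11. Sdhc was low on control replicate 3, at 11.59 against 11.95 to 12.02. Atp5g3 was high on control replicate 3, at 16.62 against 16.44 to 16.47.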

How the results depend on the processing

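No member passed the adjusted threshold under any of the 20 alternatives run (0 of 77 in the main setting), and the median over members stayed below 0 in all of them. It moved beyond the spread between arrays with centring on array medians, to -0.28. Probe sets called over the whole array were 8 with array weights and 0 to 38 when 1 array was left out (38 without injected replicate 4). Members lower at an unadjusted p under 0.05, which were 1, became 4 with centring, 2 with a trended robust prior, 2 with array weights, 2 with the replicate block (Cox7a1 joined), 2 with the mean of all probe sets of a gene and 1 to 3 when 1 array was left out (3 without injected replicate 1 or 4, 2 without injected replicate 2). Members higher became 1 with the mean of all probe sets and 0 to 1 when 1 array was left out (1 without injected replicate 1). Members without overlap, which were 2, became 7 with centring, 4 without control replicate 2 and injected replicate 3 together, and 2 to 7 when 1 array was left out (7 without control replicate 3, 6 without injected replicate 4, 5 without control replicate 4 or injected replicate 1). The replicate block changed no call past the adjusted threshold. Shares of all tested genes under these alternatives are not given, so these counts of members are not set against the whole array. Centring moved the median of all tested probe sets to -0.15. With fewer arrays, groups fail to overlap more readily in any gene.

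Of 39 named genes, 22 kept their direction throughout and 17 did not. With the deposited scaling Cox5a (0.0513), Cox6a2 (0.0271), Cox8b (0.0787), Cox7a2l (0.12), Atp5g3 (0.10) and Atp5a1 (0.16) turned positive. With centring Uqcr11 (-0.0409) and Uqcrc1 (-0.11) turned negative. With array weights Ndufs1 (0.10), Uqcrc2 (0.0279), Cox8b (0.0079) and Atp5g1 (0.26) turned positive. Without control replicate 2 and injected replicate 3 together Ndufs1 (0.11), Uqcrc2 (0.0498), Cox6c (0.0045), Cox5a (0.0032), Cox8b (0.23), Atp5g1 (0.36), Atp5g2 (0.0413) and Atp5g3 (0.0241) did. With the mean of all probe sets Sdhc (0.0212), Cox8a (0.13) and Cox7a2l (0.0165) did. Leaving out 1 array gave Ndufs1 -0.15 to 0.0873, Ndufv1 -0.12 to 0.16, Uqcr11 -0.0073 to 0.39, Uqcrc2 -0.17 to 0.0489, Uqcrc1 -0.18 to 0.24, Cox6c -0.38 to 0.0086, Cox8a -0.16 to 0.033, Cox5a -0.12 to 0.0032, Cox6a2 -0.35 to 0.13, Cox4i1 -0.29 to 0.19, Cox8b -0.64 to 0.31, Cox7a2l -0.11 to 0.0365, Atp5g1 -0.61 to 0.15, Atp5g2 -0.50 to 0.0462, Atp5g3 -0.11 to 0.0339 and Atp5a1 -0.17 to 0.14. The cause of these changes was not tested.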
